A study of Mus musculus with 5 samples.

Results

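Acyl-CoA thioesterases, encoded by the Acot genes, were followed in the livers of adult C57Bl/6 mice that had received either rat IgG, as the control, or the anti-CSF1R antibody M279. Both were injected into the peritoneum at 300 µg, 3 times a week for 6 weeks, so the control mice carried an unspecific rat antibody and were not untreated. CSF1R is the receptor of CSF1 and IL-34 on macrophages, and whole liver was measured, in which fewer cells of a type and less RNA per cell cannot be told apart. The data were 3 control and 2 anti-CSF1R arrays with 35556 probe sets each, 1 liver sample per array, and no label says whether the samples came from separate animals, so the tests capture the spread among these samples, which may be technical. The family was given as a list of 10 genes (Acot1 to Acot6, Acot8, Acot9, Acot11 and Acot12), and for each the probe set was chosen by its mean level over the 5 arrays, the highest being taken where a gene had several with no other symbol. Of the 10 genes, 9 had a probe set of their own, 1 each, among 18820 genes measured in this way. Acot8 had none, because both probe sets that carry its symbol also carry that of Snx21. The list was drawn up with earlier results of these arrays known, so the values below are a description of the family.

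Acyl-CoA thioesterases split fatty acyl-CoA, the activated form of a fatty acid, into the free acid and coenzyme A. They thus act against the acyl-CoA synthetases and set how much acyl-CoA is at hand for oxidation, for lipid synthesis and for signalling. The enzymes fall into 2 families of unrelated fold: the type I enzymes Acot1 to Acot6, which share an alpha/beta hydrolase fold, and the type II enzymes, among them Acot8, Acot9, Acot11 and Acot12, which have a hotdog fold. In mouse liver, fasting and drugs that activate the nuclear receptor PPARA are known to induce several of the type I genes.

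The 6 type I genes lie next to each other on chromosome 12, in the order Acot2, Acot1, Acot4, Acot3, Acot5 and Acot6, with no other protein-coding gene between them in the RefSeq annotation of GRCm38.p6. They are close copies, so a probe set for one may also catch transcripts of another, and the differences between them given here carry that limit. The 250 bases before the start site of Acot1, Acot3 and Acot4 are shown because these were the type I genes with the highest differences between the groups. They come from RefSeq, build GRCm38.p6, which held promoters for 9 of the 10 genes, Acot6 being the one not in it. Capitals mark matches on either strand to 3 motifs that were picked after the sequences had been seen: CCAAT, the hexamer AGGTCA that nuclear receptors recognise, and GGNCANAGGNCA, a looser direct repeat of that hexamer with a spacer of 1 base.

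Acot1, chr12:84009252-84009501, plus strand: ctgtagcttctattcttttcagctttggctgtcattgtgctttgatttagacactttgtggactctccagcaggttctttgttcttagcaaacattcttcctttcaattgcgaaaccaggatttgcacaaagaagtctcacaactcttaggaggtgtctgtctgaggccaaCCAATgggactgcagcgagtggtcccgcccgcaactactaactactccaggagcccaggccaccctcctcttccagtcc
Acot3, chr12:84051894-84052143, plus strand: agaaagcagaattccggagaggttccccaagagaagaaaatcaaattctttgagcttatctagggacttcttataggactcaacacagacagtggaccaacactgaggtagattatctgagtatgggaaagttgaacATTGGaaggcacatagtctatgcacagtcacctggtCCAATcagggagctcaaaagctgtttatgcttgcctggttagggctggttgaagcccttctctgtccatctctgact
Acot4, chr12:84038129-84038378, plus strand: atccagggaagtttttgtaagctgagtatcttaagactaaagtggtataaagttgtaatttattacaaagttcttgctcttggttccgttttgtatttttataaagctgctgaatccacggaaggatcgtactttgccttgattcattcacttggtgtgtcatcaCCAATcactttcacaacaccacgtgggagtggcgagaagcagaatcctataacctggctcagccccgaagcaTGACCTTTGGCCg

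The Acot1 window held CCAAT at positions -79 to -75, counted from -1 at the last base before the start site. Acot3 held it in both orientations, at -113 to -109 and at -77 to -73, and Acot4 held it at -85 to -81. CCAAT was present in the windows of 8 of the 9 family genes with a sequence (all but Acot12) and in 33.8% of 32851 mouse promoter windows of the same length. Acot3, Acot5 and Acot11 had 2 start sites each, and a gene counted if any of its windows held the motif. The shares of all windows are over single windows. The hexamer AGGTCA was present in 3 of the 9, Acot4, Acot5 and Acot12, and in 14.0% of all windows. The looser repeat was found only in Acot4 among the 9, at -13 to -2, where it overlaps that gene's hexamer, and in 0.694% of all windows. These are matches of letters in a short window, and no binding was measured.

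Acot1, a cytosolic enzyme for long-chain acyl-CoA, had the largest difference of the 9 genes. Its log2 intensity was 5.59, 6.19 and 6.14 on the control arrays and 6.71 and 6.72 on the anti-CSF1R arrays. Both anti-CSF1R arrays lay above all controls and within 0.0119 of each other, while control replicate 1 lay 0.571 under the mean of the other controls. The group means were 5.97 ± 0.33 (SD, n = 3) and 6.71 ± 0.01 (SD, n = 2), a log2 difference of 0.74 ± 0.20 (SE) or 1.67-fold, with a 95% interval of 0.25 to 1.23. The limma fit gave it an adjusted p of 0.201, past no threshold. Without control replicate 1 the difference was 0.55. A difference at least as high was seen in 0.207% of the 18820 genes, and one at least as large in either direction in 0.845%.

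Acot2, the mitochondrial enzyme of the type I group, gave 7.45, 8.37 and 8.47 in controls and 8.45 and 8.10 under the antibody. The groups overlapped: control replicate 1 lay 0.971 under the mean of the other controls, and the anti-CSF1R arrays lay under the highest control. The log2 difference was 0.18 ± 0.33 (SE), and it was -0.14 without control replicate 1.

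Acot3 to Acot6 encode peroxisomal enzymes, Acot3 for long-chain acyl-CoA and Acot4 for succinyl-CoA and the CoA esters of dicarboxylic acids. Acot3 gave 4.17, 4.80 and 4.61 in controls and 5.34 and 4.59 under the antibody, a log2 difference of 0.44 ± 0.28 (SE). Acot4 gave 8.09, 8.19 and 8.11 in controls and 8.72 and 8.15 under the antibody, a log2 difference of 0.31 ± 0.18 (SE). For both genes anti-CSF1R replicate 1 lay above every control and anti-CSF1R replicate 2 lay inside the control range. Their difference came to 0.82 and 0.59 without anti-CSF1R replicate 2, and to 0.0663 and 0.0210 without anti-CSF1R replicate 1. The controls of Acot4 were tight (SD 0.0543, n = 3), whereas those of Acot3 again had replicate 1 lowest, 0.530 under the mean of the others.

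Acot5, which acts on medium-chain acyl-CoA, gave 3.08, 3.19 and 2.90 in controls and 3.14 and 3.23 under the antibody, near the lower end of the array's scale, with 14.3% of probe sets dimmer on average. Acot6, which acts on the CoA esters of phytanic and pristanic acid in mouse, gave 4.67, 4.33 and 4.63 in controls and 4.67 and 4.58 under the antibody. The groups overlapped for both, with log2 differences of 0.13 ± 0.13 and 0.07 ± 0.14 (SE). Neither direction held throughout: Acot5 was at -0.0195 with quantile normalization and Acot6 at -0.0324 without control replicate 2. The 95% intervals ran from -0.18 to 0.44 for Acot5 and from -0.27 to 0.42 for Acot6, and the estimate for Acot1 lies outside both. These intervals are unadjusted and cover only the spread among the 5 arrays. With Acot5 near the floor as well, they cannot tell how far the transcripts changed.

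**Figure D1:**
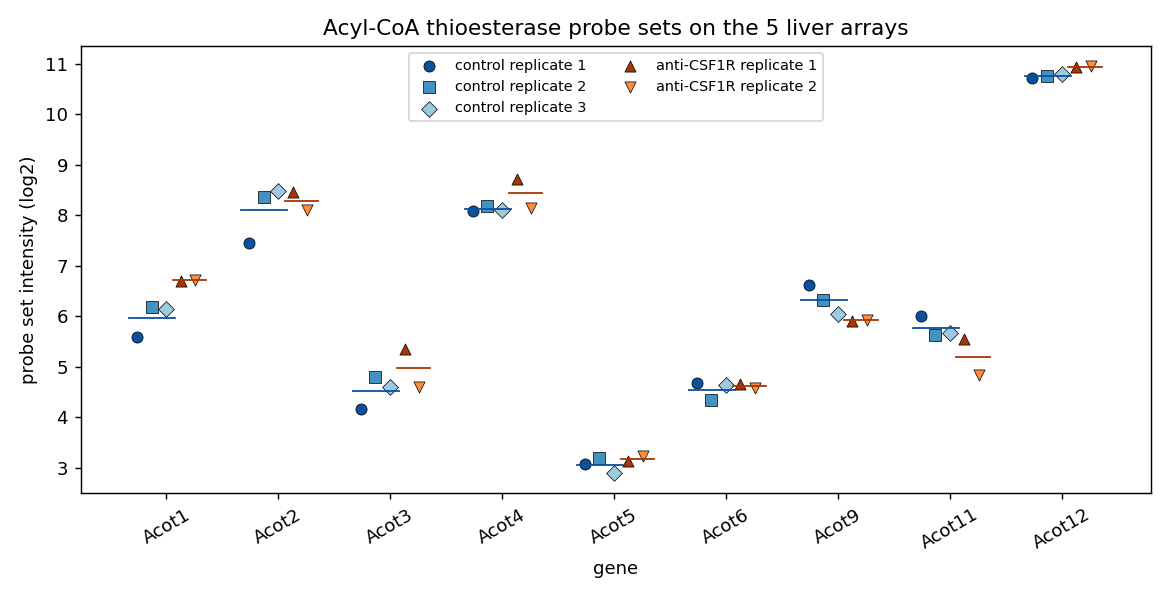
Log2 probe set intensity (vertical axis) of the 9 Acot genes with a probe set of their own, 1 point per array, 3 control arrays in blue and 2 anti-CSF1R arrays in orange, with lines at the group means. Both anti-CSF1R arrays lie above all controls for Acot1 and Acot12 and below all controls for Acot9 and Acot11; levels of different genes come from different probe sets and cannot be set against each other.

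Of the type II enzymes, Acot12 was higher and Acot9 and Acot11 were lower under the antibody. Acot12 encodes a cytosolic acetyl-CoA hydrolase of the liver with a lipid-binding START domain. It gave 10.72, 10.76 and 10.79 in controls and 10.93 and 10.95 under the antibody. Both groups were tight (SD 0.0341, n = 3, and 0.0125, n = 2) and did not overlap. The log2 difference was 0.18 ± 0.10 (SE), or 1.14-fold, with a limma adjusted p of 0.349 over all probe sets. With quantile normalization it was 0.11.

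Acot9, a mitochondrial enzyme for acyl-CoA of varied chain length, gave 6.63, 6.32 and 6.04 in controls and 5.92 and 5.93 under the antibody. The anti-CSF1R arrays lay just under the lowest control and within 0.0129 of each other, and the controls were spread over more than the difference. The log2 difference was -0.41 ± 0.18 (SE; limma adjusted p = 0.296), and it was -0.26 without control replicate 1, which was here the highest control, and -0.25 with quantile normalization. A probe set that carries the symbols of both Acot9 and Acot10 differed by -0.08 ± 0.14 (SE), with groups that overlapped.

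Acot11, also called Them1, is a long-chain acyl-CoA thioesterase with a START domain that was described in brown fat of mice kept in the cold. It gave 6.00, 5.64 and 5.66 in controls and 5.54 and 4.84 under the antibody. Both anti-CSF1R arrays lay below all controls, replicate 1 by little and replicate 2 by much. The log2 difference was -0.58 ± 0.23 (SE), or 0.671-fold, with a 95% interval of -1.15 to -0.0033 and a limma adjusted p of 0.270 over all probe sets. It was -0.93 without anti-CSF1R replicate 1 and -0.23 without anti-CSF1R replicate 2. A dimmer probe set that lists Acot11 beside Fam151a went the other way, at 0.23 ± 0.15 (SE), with overlapping groups. The 2 probe sets shared by Acot8, a peroxisomal enzyme of broad substrate range, and Snx21, a sorting nexin, had both anti-CSF1R arrays above all controls, at 0.44 ± 0.17 and 0.30 ± 0.11 (SE), and cannot be assigned to either gene.

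None of the 9 genes passed the threshold of 0.05 on limma's adjusted p (two-sided), their values running from 0.201 to 0.772. Of all 35556 probe sets 0 passed (0%), the smallest adjusted p was 0.175, and 6559 had an unadjusted p under 0.05, as did Acot1 and Acot11 among the 9. With 2 arrays against 3, exact permutation allows no p under 0.1. By groups that did not overlap, 2 of the 9 were higher, against 25.1% of the 18820 genes, and 2 were lower, against 19.5%, so neither count stands away from that of all genes. The median log2 difference was 0.18 over the 9 genes and 0.04 over all genes, so most genes measured also had a higher mean. Of the 9, 7 were above 0, among them the 6 neighbours on chromosome 12, whose probe sets may share signal. The directions of Acot2, Acot5 and Acot6 did not hold under every alternative. Without anti-CSF1R replicate 1 the median of the 9 was 0.0292.

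The background depended on level, which bears on how each gene reads. Among genes with a mean log2 intensity from 6 to 8, where Acot1 and Acot9 lie, 4.57% had both anti-CSF1R arrays above all controls and 41.3% had both below, and the median difference was -0.15. Acot1 thus went against most genes of this range, and Acot9 went with them. Both lie near its lower edge, with means over the 5 arrays of 6.27 and 6.17. By its control mean of 5.97, Acot1 would fall in the range from 4 to 6, so its reading depends on the cut. From 4 to 6, the range of Acot3, Acot6 and Acot11, the shares were 26.3% above and 14.8% below, with a median of 0.06. From 8 to 10, where Acot2 and Acot4 lie, 10.3% were above and 27.9% below, with a median of -0.06, while both of these genes had higher means under the antibody and overlapping groups. Among the 1031 genes at 10 or more, where Acot12 lies, 19.1% were above and 16.8% below, with a median of 0.01. Under 4, the range of Acot5, 50.8% were above and 1.3% below, with a median of 0.19. These ranges of level were set after the values had been seen, and the part of this shift in the values of the family was not tested.

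**Figure D2:**
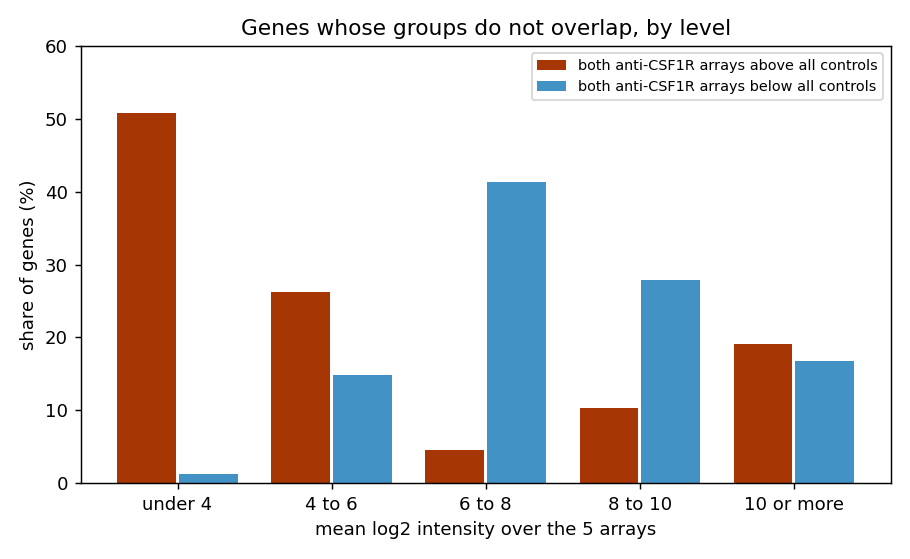
Share of genes (vertical axis, percent of the genes in each range of mean log2 intensity, horizontal axis) with both anti-CSF1R arrays above or below all 3 controls. At 6 to 8, the level of Acot1 and Acot9, 4.57% of genes were above and 41.3% below.

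The arrays that set the spread differed from gene to gene. For Acot1, Acot9 and Acot12 the anti-CSF1R arrays lay within 0.0178 of each other on the log2 scale, where the median gap over all genes was 0.166. For Acot3, Acot4 and Acot11 the gap was 0.751, 0.571 and 0.700, and replicate 1 was the higher array in each. Among the controls, replicate 1 stood apart in the same direction for Acot1, Acot2 and Acot3, and in the opposite direction for Acot9 (0.447 above the others' mean) and Acot11 (0.351 above). The median size of this gap over all genes was 0.113. For Acot4, Acot5 and Acot12 that array lay within 0.0605 of the mean of the other controls.

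Control replicate 1 was the lowest of the 5 arrays for 7 of the 17 measured genes of the PPARA target list, and for 18.7% of all genes. The 3 examples that follow were chosen after their values had been seen, and other genes of the list, among them Fabp1, Ehhadh and Cd36, were lowest on another array. Cyp4a14, a fatty acid omega-hydroxylase, was at 7.52 there, against 11.02 and 9.84 on the other controls and 9.95 and 9.53 under the antibody. Cyp4a31 was at 7.96 there, against 9.24 and 9.08, with 9.22 and 9.09 under the antibody. Vnn1, the pantetheinase that frees a precursor of coenzyme A, was at 8.37 there, against 9.95 and 9.40, with 9.64 and 9.31 under the antibody. For all 3 genes the anti-CSF1R arrays lay inside the control range, as for Acot2. Ppara itself gave 9.85, 9.89 and 9.90 in controls and 10.20 and 9.94 under the antibody. Control replicate 1 was its lowest array too, but close to the other controls.

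**Figure D3:**
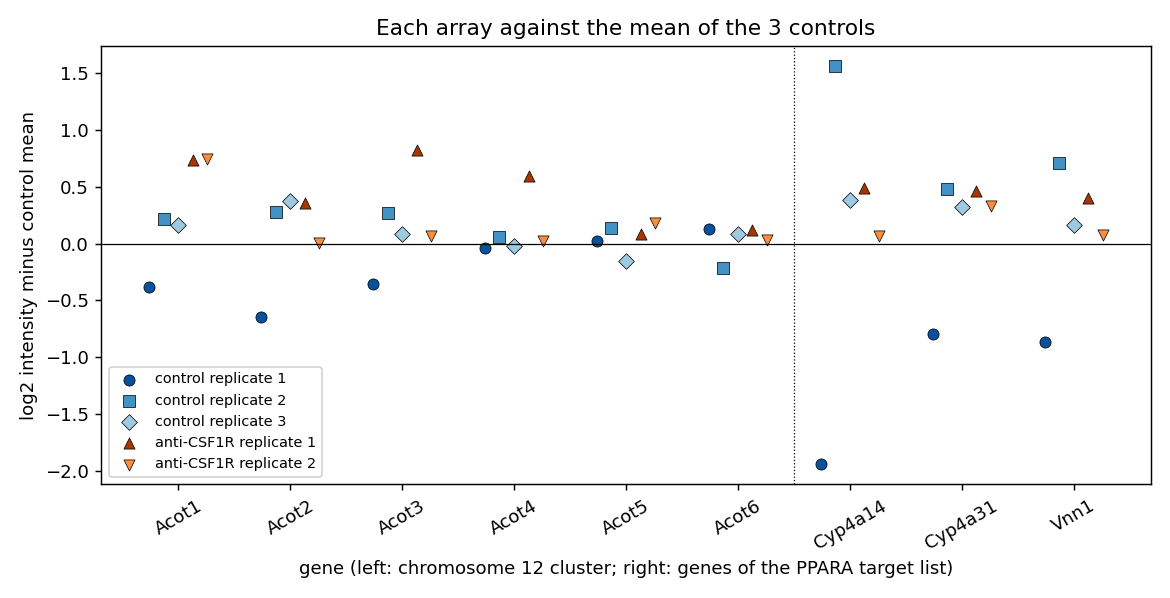
Log2 intensity of each array minus the mean of the 3 controls (vertical axis) for the type I genes of chromosome 12 and for 3 genes of the PPARA target list, 1 point per array. Control replicate 1 is the lowest array for Acot1, Acot2, Acot3, Cyp4a14, Cyp4a31 and Vnn1, and anti-CSF1R replicate 1 is the highest for Acot3 and Acot4.

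Genes with a pattern most like that of Acot1 were named by the distance between the 5 log2 values after each gene's own mean was taken off, over 8609 other genes with a mean log2 of at least 6. The nearest were Cyp2c38, a cytochrome P450 (distance 0.291, log2 difference 0.49 ± 0.22, SE), Eci2, an enoyl-CoA isomerase of peroxisomes and mitochondria (0.293, 0.60 ± 0.14), and Crip1, a LIM-domain protein (0.304, 0.65 ± 0.17). Next came Gstt2, a glutathione transferase (0.329, 0.80 ± 0.22), and Rab30, a small GTPase of the Golgi (0.363, 0.83 ± 0.13). Like Acot1, all 5 had their lowest value on control replicate 1 and both anti-CSF1R arrays above all controls, which the choice by distance to Acot1 favours. Distances over 5 arrays rest on few values and are given as a description.

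Thioesterases outside the list were measured for 11 of 12 genes. Of these, 0 passed, 4 had both anti-CSF1R arrays above all controls and 1 had both below, with a median log2 difference of 0.12. Over all genes, 25.1% were above and 19.5% below. Them4, a mitochondrial enzyme of the hotdog group, gave 7.79, 7.86 and 7.72 in controls and 8.10 and 8.22 under the antibody. Its groups were apart by more than the spread within either, at 0.38 ± 0.11 (SE), with a limma adjusted p of 0.208. The related Them5 was at 0.40 ± 0.18 (SE). It counts among the 4 above only narrowly, since anti-CSF1R replicate 1 was level with its highest control to the digits kept. Acot7, known from neurons, was at 0.13 ± 0.11 (SE), with both anti-CSF1R arrays above all controls. Acot13, also called Them2, which associates with mitochondria, was at 0.19 ± 0.14 (SE), with overlapping groups. Baat, which joins bile acids to amino acids and shares the fold of the type I enzymes, was at -0.18 ± 0.11 (SE), with groups that did not overlap. Olah, which releases fatty acids from fatty acid synthase, was dim and at 0.30 ± 0.16 (SE), with both anti-CSF1R arrays above all controls. The lysosomal Ppt1 was at -0.04 ± 0.10 (SE).

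**Figure D4:**
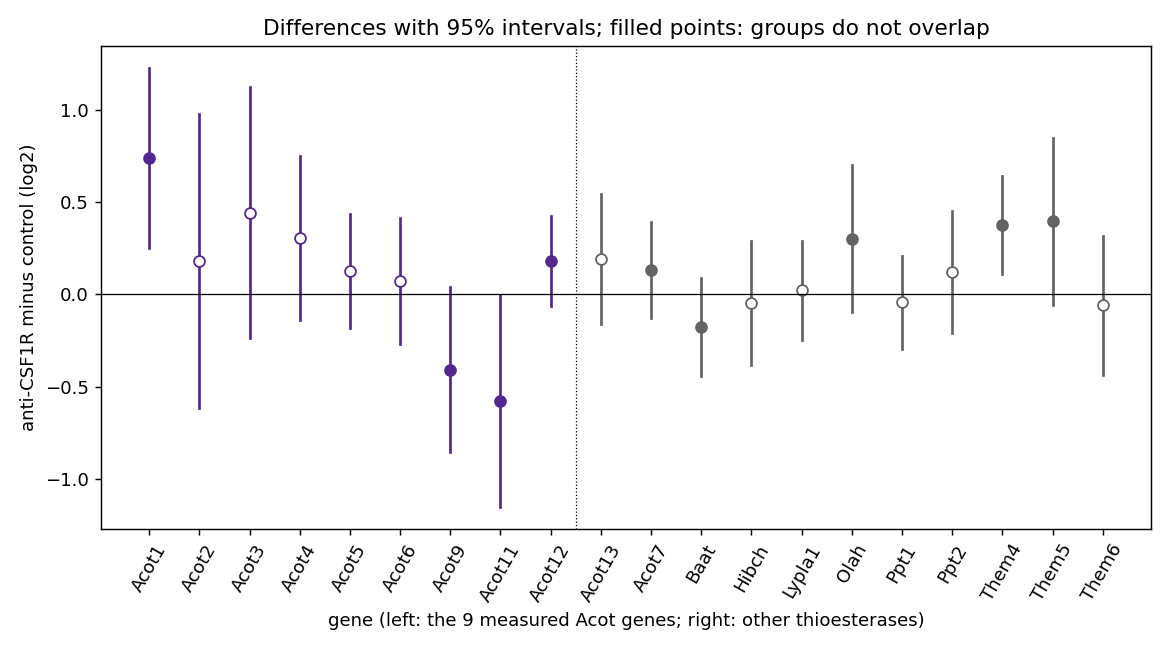
Log2 difference, anti-CSF1R minus control (vertical axis), with its 95% interval from limma, for the 9 Acot genes on the left and 11 other thioesterase genes on the right; filled points have groups that do not overlap. The intervals of Acot1, Acot11 and Them4 lie to one side of 0, that of Acot11 barely, and none of these genes passed after adjustment.

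Acyl-CoA synthetases, which make the substrate of the thioesterases, were measured for 19 of 22 genes: 0 passed, 3 were above all controls on both anti-CSF1R arrays and 4 below, with a median of -0.05. The lower ones included Acss2, the cytosolic acetyl-CoA synthetase (-0.69 ± 0.22, SE), and Acsl5, a long-chain synthetase (-0.55 ± 0.19), and for both anti-CSF1R replicate 2 was the lowest array, as for Acot11. The higher ones with the smallest p were Acsl6 (0.27 ± 0.13) and Acss1 (0.26 ± 0.13), both dim. Of the PPARA target list 17 of 20 genes were measured, 0 passed, 5 were above and 0 below, with a median of 0.14. The counts of both lists stand beside the 25.1% of all genes above and the 19.5% below. The higher genes of smallest p were Angptl4, an inhibitor of lipoprotein lipase (1.15 ± 0.13), and the fatty acid binding protein Fabp1 (0.19 ± 0.11), while Ehhadh (-0.32 ± 0.24) and Cd36 (-0.31 ± 0.24) had lower means and overlapping groups. Over the whole list 12 genes had a higher mean and 5 a lower one.

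Peroxisomal oxidation, which shares its compartment with the enzymes of Acot3 to Acot6 and Acot8, had 18 of 20 genes measured, with 0 past the threshold, 4 above, 0 below and a median of -0.02. For this list and those that follow here, the shares over all genes were 25.1% above and 19.5% below. Eci2 (0.60 ± 0.14, SE) and Ech1 (0.17 ± 0.11) were its higher genes of smallest p. Its lower ones of smallest p were Acox3 (-0.26 ± 0.15) and the transporter Abcd2 (-0.90 ± 0.52). For Abcd2, control replicate 1, at 6.23, lay under both other controls and under the anti-CSF1R arrays. Mitochondrial oxidation, with 16 of 17 genes measured, had 0 past the threshold, 2 above, 0 below and a median of 0.05. Its higher genes of smallest p were Eci1 (0.24 ± 0.13) and Decr1 (0.15 ± 0.11). Hadha (-0.18 ± 0.15) and Acadm (-0.15 ± 0.15) were its lower ones of smallest p. The groups of Decr1, Hadha and Acadm overlapped. Coenzyme A synthesis and breakdown had 12 of 12 measured, 0 past the threshold, 0 above, 2 below and a median of -0.08. Its genes of smallest p were Nudt7 (0.07 ± 0.10) and Nudt8 (0.14 ± 0.24) among the higher. Among the lower they were Ppcs (-0.30 ± 0.17) and Pank3 (-0.22 ± 0.13), and the groups of all these genes overlapped. Acyl-CoA binding proteins had 6 of 6 measured, 0 past the threshold, 1 above, 1 below and a median of -0.04. The 1 above was Fabp1 (0.19 ± 0.11), also on the PPARA target list, and the 1 below was Acbd3 (-0.38 ± 0.14). Dbi (0.03 ± 0.12) and Acbd5 (-0.25 ± 0.22) had overlapping groups. Of 8 regulators 7 were measured, 0 passed, 2 were above and 3 below, with a median of -0.18. Ppargc1b (0.34 ± 0.13) and Ppara (0.19 ± 0.12) were higher, and Ppard (-0.96 ± 0.27) and Ppargc1a (-0.38 ± 0.16) lower.

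The liver label was checked on 8 hepatocyte genes, which lay between 11.35 and 13.20 on every array, with a summed intensity of 53950 to 55820 in controls and 53700 to 54260 under the antibody, 3 above, 2 below and a median difference of -0.0023. Of 11 macrophage markers, 1 was above, the scavenger receptor Marco (1.34 ± 0.17, SE), and 3 below, among them Csf1r (-0.56 ± 0.12), with sums of 4436 to 5137 in controls and 3493 to 4713 under the antibody, and the median of their deviations from the control means was -0.54 on anti-CSF1R replicate 1 and 0.01 on replicate 2. The endothelial (6), stellate (6) and cholangiocyte (4) markers had medians of -0.03, 0.20 and 0.02. By array, the median deviation from the control means on anti-CSF1R replicates 1 and 2 was 0.29 and -0.40 for the cholangiocyte markers, which went opposite ways, and 0.04 and 0.33 for the stellate markers. Adipocyte markers, which could bear on Acot11, had 5 of 6 above and 0 below, all between 2.64 and 4.14 on the log2 scale, with sums of 63.7 to 66.2 in controls and 78.6 to 79.8 under the antibody. Neutrophil markers (4 of 4 above, 4.05 to 5.02), pancreas markers (2 of 3 above, 3.07 to 5.84) and muscle markers (0 of 4 above, 3.24 to 5.22) were dim as well. These counts stand beside the 50.8% of all genes under 4 and the 26.3% of all genes from 4 to 6 that had both anti-CSF1R arrays above all controls. The hepatocyte and macrophage counts stand beside the 25.1% of all genes above and the 19.5% below. No marker was at 0, since the deposited table holds no zero, and the part of any cell type in the values of the Acot genes was not tested.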

How the data were processed

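The deposited table holds 1 intensity per probe set and array, on a linear scale with medians of 32.5 to 33.9, for biotin-labelled cDNA amplified with NuGEN kits per the labels' protocols. Per the submitters' processing notes, Affymetrix Expression Console 1.1 was used; how it summarised and normalized the probes is not given in the sources used here. Array number limits the precision, and the median SE over probe sets was 0.138.

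Log2 was taken with no offset. Of the probe sets 21218 had 1 gene symbol in the platform annotation, updated to RefSeq symbols by gene ID, 1881 had several and 12457 were unlisted. A linear model with moderated variance (limma 3.58.1 under R 4.3.3; two-sided; 3 residual and 3.03 prior degrees of freedom) was fitted to all 35556 probe sets with Benjamini-Hochberg adjustment over them, and 95% intervals came from this fit. The fit was run on simulated data in which 200 probe sets had been changed. The simulation held no shift by level of the kind seen on these arrays, so it was a check of the code only. The Acot genes, gene lists and naming rules (from each list, the 2 genes of smallest p in each direction; for likeness, the 5 nearest genes to the Acot gene of largest difference) were chosen with earlier results of these data known. Plots used matplotlib 3.10.9 and Python 3.11.15. Alternatives covered normalization, offset, dim probe sets, choice of probe set, variance model, weights, replicate block and each array left out.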

Additional observations from a re-analysis of the deposited data

How the results depend on the processing

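Across 13 or 14 alternatives each, 0 of the 9 Acot genes passed an adjusted p of 0.05 in limma. Acot1 stayed between 0.55 and 0.88 (adjusted p 0.0834 to 0.411), and the directions of Acot3, Acot4, Acot9, Acot11 and Acot12 held. Acot2 turned to -0.144 without control replicate 1 (0.366 without control replicate 3), Acot6 to -0.0324 without control replicate 2 (0.137 without control replicate 1), and Acot5 to -0.0195 with quantile normalization; the cause was not tested. The median of the family was 0.109 with quantile normalization and 0.0292 to 0.199 with 1 array left out. The 4 genes whose groups did not overlap became 3 with quantile normalization and 5 with arrays centred on their medians. With 1 array left out the count was 4 to 6, but leaving out an array can only keep or raise it. That range is therefore no check of the count. Over all features, 14 genes passed when only 1 probe set per gene was fitted and 12 when probe sets of a gene were averaged, with no Acot gene among them, and 0 probe sets passed under the other alternatives. The replicate numbers were not shown to pair the samples: deviations of same-numbered arrays correlated at 0.0268 and 0.0325. With the number as a replicate block, 0 probe sets passed and Acot1 was at 0.82 (adjusted p = 0.367). Acot3, Acot5 and Acot6 lay under the median level and have no value with that filter. Signals of Acot5 were near the array's floor.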
